A study of Mus musculus with 48 samples.

Results

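Daughter cells of aged and young hematopoietic stem cells (HSCs) were compared gene by gene for open chromatin at promoters. The cells were all those whose library name starts with 3, which is taken here as library set 3. They made up 26 of the 48 cells profiled, with 10 daughters of 5 divisions of aged HSCs and 16 daughters of 8 divisions of young HSCs. The study asked whether the 2 daughters of a stem cell division carry the same epigenetic state, and whether this changes with age. Single long-term HSCs were cultured in cytokines until they divided, the daughters were separated by hand, and the open chromatin of each was read with the transposase Tn5 (scATAC-seq).

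Both groups were labelled as strain B6.SJL and came from bone marrow sorted for long-term HSCs. The labels of these cells name no drug. Aged mice were 20 to 26 months old and young mice 10 to 12 weeks old. Each cell grew in IMDM medium with 10% serum and cytokines, at 3% oxygen and 5% CO2, and was collected after 40 to 44 h, once the first division was complete. Cytokines were given at 50 ng/ml in the labels. No source says which mouse a division came from, so several divisions may share an animal. A division was therefore 1 replicate, and p-values measure only the spread between these divisions. The sorting gate kept primitive cells without lineage antigens, but the daughters had spent nearly 2 days in culture by the time they were collected.

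HSCs make all blood cells and can renew themselves. With age they become more numerous, repopulate less well and give more myeloid and platelet cells. Tn5 cuts DNA where nucleosomes leave it exposed, and active promoters are among the most exposed sites of a genome. A diploid cell has few copies of each promoter, so a single cell gives at most a few insertions at each, and a promoter with no insertion need not be closed.

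The deposited lists give, for each cell, regions with at least 1 insertion, their pileup (how many extended insertions overlap at the summit) and a q-value from the peak caller. A region with q under 0.05 was counted as a peak. A gene was open in a cell when a peak overlapped the stretch from 1000 bp before to 1000 bp after a transcription start site (TSS). Aged cells held between 21279 and 96484 peaks with a median of 43520, and young cells between 21950 and 82399 with a median of 46102, over the 9 aged and 13 young cells used. Their summed pileup ran from 116868 to 420548 in aged cells and from 138912 to 342726 in young cells. Another 4 cells, aged 3B and young 1B, 5B and 6B, held 74 to 2386 peaks and were left out, and their divisions kept the other daughter. Each remaining cell was thinned to 21279 peaks, the number in the smallest of them, by the exact chance that a random draw keeps a peak of the gene. The mean of this chance over the daughters of a division, as a percent, is called the promoter-open value. The number of peaks itself differed little with age, with a mean log10 peak number of 4.66 ± 0.0923 (SD, n = 5) in aged and 4.64 ± 0.0961 (SD, n = 8) in young divisions (exact permutation test, two-sided, p = 0.796).

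Cells of different divisions listed many regions with exactly the same start and end. Of the peaks of a cell, 90.6% to 95% (median 93.3%) had the same borders as a region listed in at least 1 cell of the other divisions of set 3. Single insertions, regions of 150 bp with a pileup of 1, showed blocks as well. Cells of different divisions among young divisions 1 to 4 had a median of 50.4% of them in common, and those among young divisions 5 to 8 46.3%, but the median between these blocks was 32.7%. Sisters used had a median of 49.6% in common. Aged cells shared a median of 42.5% among themselves, 38.8% with young divisions 1 to 4 and 35.9% with young divisions 5 to 8. Divisions are thus not independent draws, and the p-values below take no account of this. The cause of the sharing was not tested. With shared regions removed, a choice made after the sharing was seen, 3739 genes could be tested and none passed an adjusted p of 0.05 in limma, with 160 genes higher and 16 lower in aged divisions at an unadjusted p under 0.05. Each cell was then thinned to 1105 peaks instead of 21279.

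**Figure D1:**
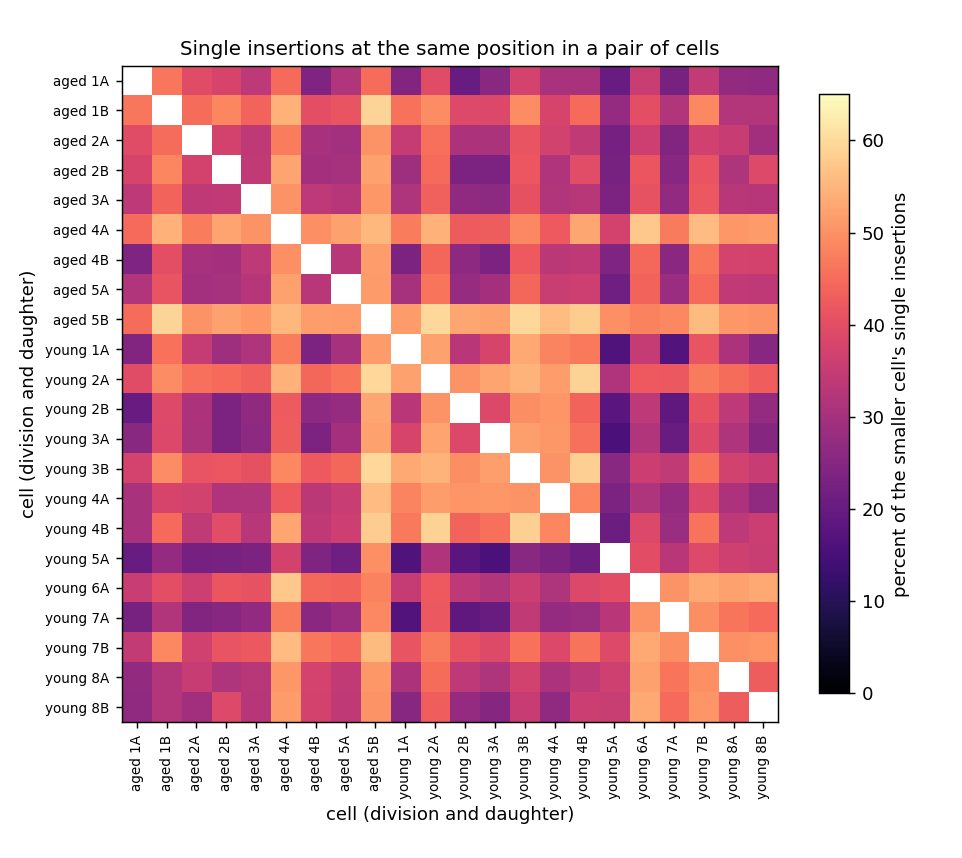
Percent of single insertions (150 bp, pileup 1) of the smaller cell that the other cell lists at the same position, for each pair of the 22 cells used, by division and daughter. Young divisions 1 to 4 and young divisions 5 to 8 form a block each (medians 50.4% and 46.3%), with a median of 32.7% between them.

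No gene differed between aged and young divisions beyond the threshold. Of 26180 genes annotated, 13810 had a peak in a cell used and 11957 had a peak in at least 3 divisions and were tested. Among those tested, 186 (1.56%) had no peak in a young cell used and 118 (0.987%) none in an aged one. Such genes passed this filter through a single age, so their p-values are no support for a difference with age. In limma, 0 of the genes tested passed an adjusted p of 0.05 (0% called), and the smallest adjusted p was 0.397. An exact permutation test per gene called 0 as well, with 752 genes higher and 161 lower in aged divisions at an unadjusted p under 0.05. The smallest p that this exact test can give is 7.77e-04, so with so many genes its 0 calls were close to fixed by the design. In limma 777 genes were higher in aged divisions at an unadjusted p under 0.05 (6.5% of those tested) and 169 were lower (1.41%). Leaving out 1 division at a time gave 583 to 1000 higher and 114 to 239 lower genes. The counts were closer with 4 young divisions fewer. Without young divisions 1 to 4, 683 were higher and 579 lower, and without young divisions 5 to 8, 712 and 451, both removals chosen after the sharing was seen. The promoters of the 777 genes had a median promoter-open value of 36.3% in aged and 6.06% in young divisions, and those of the 169 genes 16.8% and 46.4%. In these genes the aged divisions all lay above the young ones in 32 cases, and all below them in 2. The median standard error of a difference was 12.2 percentage points, so differences of a few points could not be detected for a single gene.

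The median difference over the genes tested was 2.09 percentage points in favour of aged divisions, and 55.6% of the genes had a positive difference. The mean promoter-open value over all annotated genes, here called the open promoter share, was 12.4%, 13.8%, 14.2%, 11% and 11.6% in aged divisions 1 to 5. In young divisions it ran from 9.74% to 13.8%. The groups overlapped, and the means of 12.6% ± 1.38 (SD, n = 5) and 11.4% ± 1.35 (SD, n = 8) did not differ beyond the threshold (exact permutation test, two-sided, p = 0.144, adjusted p = 0.263 over 5 tests of division values). The side of the threshold depended on how peaks were picked. When each cell kept its 21279 peaks of highest pileup instead of random ones, the share was 16.9% to 20.5% in aged and 13.9% to 17.8% in young divisions, with means of 18.9% ± 1.36 (SD, n = 5) and 15.8% ± 1.32 (SD, n = 8) (exact permutation test, p = 0.00311). Counting regions with a pileup of at least 3 also gave a difference, of 1.76 percentage points (exact permutation p = 0.0354). That count also changed the cells, to 16 in 5 aged and 7 young divisions, thinned to 5206 regions. The other planned ways of counting gave exact permutation p-values from 0.0769 to 0.927, and leaving out 1 division at a time 0.0518 to 0.325.

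Young divisions outside set 3 set these values in scale. In 3 of them a cell had enough peaks, division 1 of set 4 and divisions 5 and 6 of set 5, though the cell of division 5 held 21193 peaks and was kept whole. Their open promoter shares were 12.4%, 15.8% and 10.5% by random thinning, which spans the range of the aged divisions of set 3. By highest pileup they were 21.1%, 15.8% and 22%, and the first and the last lay above all aged divisions of set 3. Age and library set were not crossed here, as no aged cell outside set 3 held enough peaks.

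**Figure D2:**
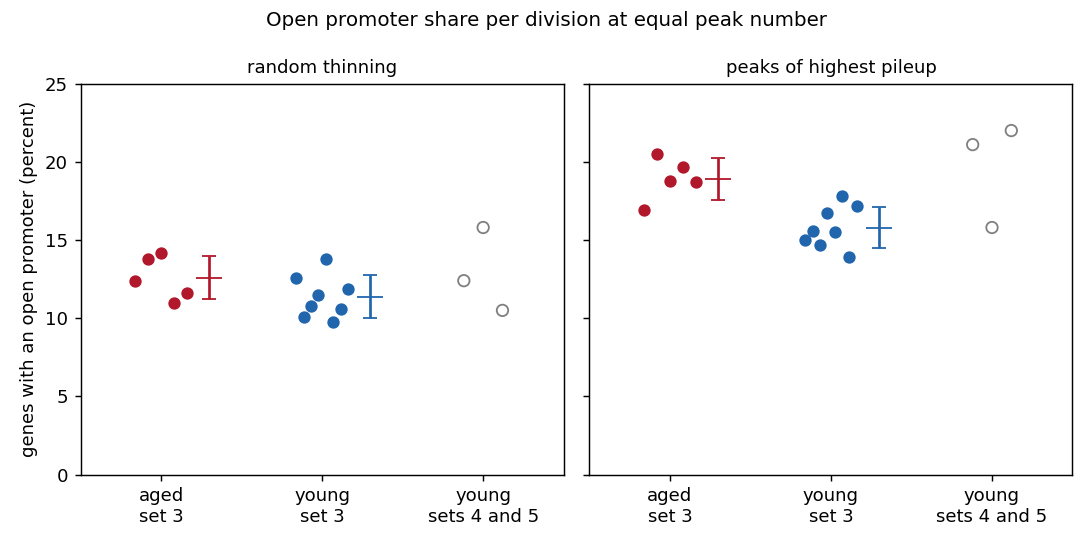
Percent of 26180 genes with an open promoter at equal peak number, per division, by random thinning (left) and among the peaks of highest pileup (right). Filled points are divisions of set 3 with mean and SD beside them, and open circles are young divisions of sets 4 and 5. Aged and young divisions of set 3 overlap on both sides, and open circles reach 22% on the right.

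The 10 protein-coding genes with the smallest unadjusted p on the aged side became 14 because 7 were tied for the last place. None passed the adjusted threshold (adjusted p = 0.397 for each). Tfap4, which encodes the basic helix-loop-helix factor AP-4, led them. Its TSS lies on the minus strand of chromosome 16 at position 4559720. The Tfap4 promoter-open value was 79.7%, 71.9%, 54.8%, 49.4% and 43% in aged divisions 1 to 5. In the 8 young divisions it was 0% to 33.8% with a median of 0%, so the groups did not overlap. The difference was 53.9 ± 13.9 percentage points (SE, limma, unadjusted p = 1.08e-04). All 9 aged cells had a peak there and 2 of the 13 young cells did, yet a region of any q was listed in 10 young cells, with a median top pileup of 2 in young and 3 in aged cells. Among the peaks of highest pileup, Tfap4 was at 100% in aged and 18.8% in young divisions.

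Chst15, a sulfotransferase that adds sulfate to chondroitin chains, was at 79.7%, 71.9%, 79.6%, 49.4% and 43% in aged divisions 1 to 5. Young divisions ran from 0% to 66.3% with a median of 0%, and young divisions 1 and 5 lay inside the aged range. The difference was 46.2 ± 12.6 percentage points (SE, limma, unadjusted p = 2.46e-04). The peak of Chst15 had the same borders in 9 of the 12 cells that had one, with a length of 193 bp and its centre 285 bp past the TSS. The predicted gene Gm10584 starts within 2000 bp, so the peak belongs to both. With a weight for each division in limma, Chst15 was the single gene past the threshold, with a difference of 49 ± 10.6 percentage points (SE, adjusted p = 0.049). Among the peaks of highest pileup, Chst15 was at 58.4% in aged and 22.3% in young divisions (limma, unadjusted p = 0.0826). Its log2 pileup reached 2.09 in aged and 2.85 in young divisions. The exact permutation test gave it an unadjusted p of 0.0124. Over the alternatives that called no gene, the smallest adjusted p of any gene ran from 0.0717 to 0.797. 1700006A11Rik followed, at 58.8% ± 28.3 (SD, n = 5) in aged and 9.34% ± 17.6 (SD, n = 8) in young divisions.

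The promoter sequence of Chst15 is shown as that of a leading gene of the aged side. It holds the 250 bases before the TSS at position 132317228 (RefSeq, GRCm38.p6, chr7:132317229-132317478, minus strand), of which 54.8% are G or C. Capitals mark matches on either strand to any of 7 motifs, the GC box GGGCGG, the CCAAT box (CCAAT), the TATA box TATAAA, the AP-1 site TGAGTCA, the ETS site CCGGAA, the E-box CACGTG and the AP-4 site CAGCTG.
Chst15: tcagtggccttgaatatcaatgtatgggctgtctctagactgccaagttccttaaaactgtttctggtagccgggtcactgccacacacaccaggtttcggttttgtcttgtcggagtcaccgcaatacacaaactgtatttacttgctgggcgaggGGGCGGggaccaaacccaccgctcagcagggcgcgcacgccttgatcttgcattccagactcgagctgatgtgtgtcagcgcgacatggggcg
It has a single match, a GC box, which 33% of the 32536 RefSeq promoter stretches of this length hold. The CCAAT box is in 33.8% of them, TATAAA in 12.3%, the AP-1 site in 4.45%, the ETS site in 12.1%, CACGTG in 6.04% and the AP-4 site in 13.1%.

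The other 11 genes had no peak in any young cell used of set 3. This held for 151 (19.4%) of the 777 genes higher in aged divisions and for 186 (1.56%) of all genes tested. Genes of this kind passed the filter through aged divisions alone and are common among those picked by p on the aged side. Gm10778, a predicted gene on chromosome 10, was at 68.1%, 47%, 54.8%, 11% and 43% in aged divisions 1 to 5, and 8 aged cells carried it with identical borders. No young cell listed any region at Gm10778, and the same was true of Ccdc190, a coiled-coil gene, which lacked a peak in aged division 5. Grb2, the adaptor that couples growth factor receptors to Ras, was open in 7 aged cells at 50%, 47%, 54.8%, 11% and 43%. Grb2 had a region of some q in 8 young cells, with a top pileup of at most 2. Ftl1, the ferritin light chain that stores iron, was at 39.9% ± 23.3 (SD, n = 5), with pileups up to 6 in aged and 3 in young cells.

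The 7 tied genes were open in the same 7 aged cells, all except aged 4B and 5A, and so had 1 set of values, 68.1%, 47%, 54.8%, 11% and 13.2% in aged divisions 1 to 5 and 0% in all young ones. The difference was 38.8 ± 11.4 percentage points (SE, limma, unadjusted p = 6.73e-04). All 7 genes entered the test through their aged divisions alone, so this p-value is no support for a difference with age. They were Mef2d, a MADS-box transcription factor, Peli1, a ubiquitin ligase of Toll-like receptor signalling, Robo2, a receptor for Slit guidance cues, Ube2h, a ubiquitin-conjugating enzyme, Cdc25c, the phosphatase that activates Cdk1 at entry into mitosis, and the pair Hmmr and Nudcd2. Hmmr, a hyaluronan receptor that also acts at the mitotic spindle, and Nudcd2 share 1 promoter and its peaks, and Ube2h shares its promoter with 1700095J07Rik. Mef2d shows what a missing peak can hide. All 13 young cells listed a region at Mef2d, with a median top pileup of 2 and a highest of 3, against a median of 5 and a highest of 6 in aged cells. Counting every region listed, which also used all 26 cells and thinned each to 26304 regions, the Mef2d difference was -2.16 percentage points. All 14 genes had a peak in at least 1 of the 4 young cells outside set 3 that were used. So did all 10 genes named below on the young side. Of all genes tested, 77.9% were open in division 1 of set 4, and 33.8% and 74.8% in divisions 5 and 6 of set 5.

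The 10 genes on the young side did not pass either (adjusted p = 0.397 to 0.46). Cxcr3, a chemokine receptor best known from T cells, had the smallest p. Its value was 29.7%, 47%, 0%, 11% and 23% in aged divisions 1 to 5, and 44.6% to 82.6% with a median of 63.9% in young divisions. Aged division 2 lay just above the lowest young one. The Cxcr3 difference of -41.3 ± 10.6 percentage points (SE, limma, unadjusted p = 1.05e-04) came with a peak in 5 of 9 aged and 13 of 13 young cells. Mpp7, a scaffold protein of junctions and polarity complexes, was at 28.6% ± 23.9 (SD, n = 5) in aged and 64% ± 7.97 (SD, n = 8) in young divisions.

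Vps13d, a lipid transfer protein needed for mitochondrial clearance, was at 18.1%, 24.4%, 0%, 11% and 13.2% in aged divisions 1 to 5. Young divisions ran from 44.6% to 66.3%, above every aged one. Zscan18, a zinc finger gene, was the other named gene whose groups did not overlap, with at most 24.4% in aged and at least 31% in young divisions. Idh3g, a subunit of the NAD-dependent isocitrate dehydrogenase of the citric acid cycle, and Ssr4, a subunit of the complex that passes proteins into the endoplasmic reticulum, share 1 promoter. It was at 18.1%, 71.9%, 0%, 61.5% and 43% in aged divisions and 56.2% to 82.6% in young ones, so that aged divisions 2 and 4 lay within the young range. Kif23, a kinesin of the central spindle needed for cytokinesis, was at 14.2% ± 19.3 (SD, n = 5) in aged and 51% ± 11.5 (SD, n = 8) in young divisions. Shld1, a shieldin subunit that protects DNA ends, Golga3, a Golgi protein, and Chrdl1, a secreted antagonist of bone morphogenetic proteins, made up the rest, with differences of -33.9, -30.6 and -35.1 percentage points.

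Leading promoters of the young side are shown for comparison, each as the 250 bases before the TSS in RefSeq GRCm38.p6, all from minus strands, with capitals as above. Cxcr3 lies at chrX:101734148-101734397, Vps13d at chr4:145195006-145195255 and Idh3g at chrX:73786898-73787147.
Cxcr3: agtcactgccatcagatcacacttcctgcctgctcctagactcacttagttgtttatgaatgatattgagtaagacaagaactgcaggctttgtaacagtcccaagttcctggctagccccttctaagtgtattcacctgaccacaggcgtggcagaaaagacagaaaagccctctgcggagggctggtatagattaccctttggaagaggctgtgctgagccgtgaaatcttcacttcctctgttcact
Vps13d: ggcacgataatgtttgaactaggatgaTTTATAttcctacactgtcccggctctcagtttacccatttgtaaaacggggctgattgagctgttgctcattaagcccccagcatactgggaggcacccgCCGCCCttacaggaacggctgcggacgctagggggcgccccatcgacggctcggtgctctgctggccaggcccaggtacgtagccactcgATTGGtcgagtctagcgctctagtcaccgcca
Idh3g: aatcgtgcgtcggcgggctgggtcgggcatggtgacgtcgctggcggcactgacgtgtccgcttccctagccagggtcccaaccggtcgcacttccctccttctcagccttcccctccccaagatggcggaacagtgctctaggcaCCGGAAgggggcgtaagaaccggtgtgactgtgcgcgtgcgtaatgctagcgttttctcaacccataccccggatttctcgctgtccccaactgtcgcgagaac
They differ in kind. That of Cxcr3 holds none of the motifs and few CpG dinucleotides, with 0.209 of the number that its bases would give by chance and 48% G or C. Vps13d has a ratio of 0.821, with a GC box, a CCAAT box and TATAAA on the opposite strand, and Idh3g has a ratio of 0.977, with 1 ETS site.

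**Figure D3:**
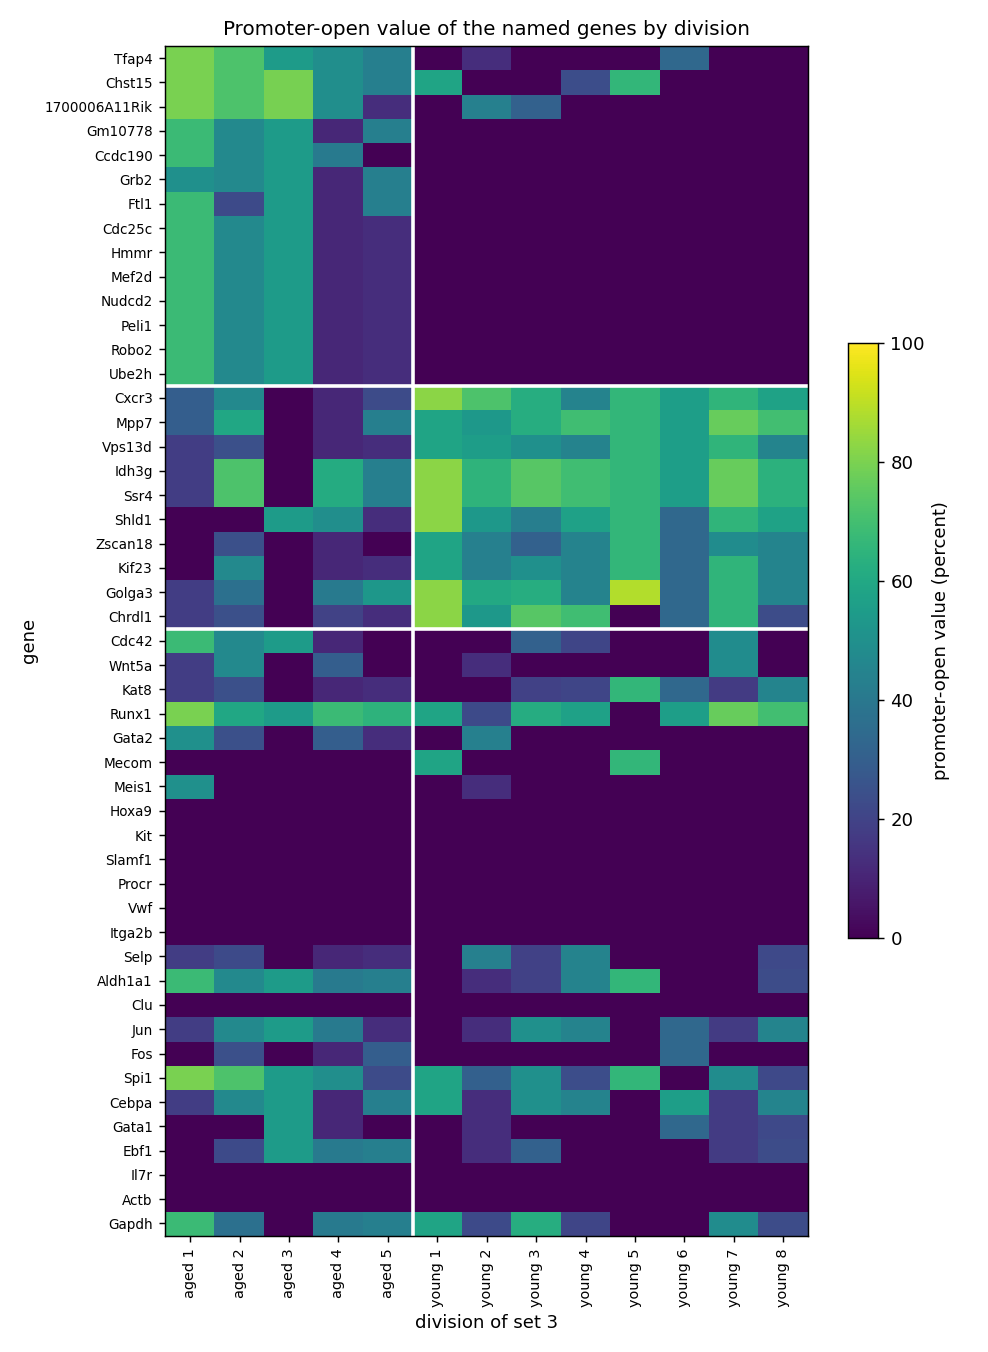
Promoter-open value (percent, colour) of each named gene in each division of set 3, aged 1 to 5 on the left and young 1 to 8 on the right. From the top the blocks are the 14 genes with the smallest p on the aged side, the 10 on the young side and 25 of the 26 genes named whatever their values. In the top block 11 genes are at 0% in all young divisions, and in the bottom block 9 genes are at 0% throughout. No peak in a young cell used was found for 19.4% of the 777 genes higher in aged divisions and 1.56% of all genes tested.

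Cdc42, the small GTPase whose activity sets the polarity of HSCs, was at 68.1%, 47%, 54.8%, 11% and 0% in aged divisions 1 to 5. In young divisions it ran from 0% to 48.5% with a median of 0%. The Cdc42 difference of 23.6 ± 13.8 percentage points did not pass (SE, limma, unadjusted p = 0.0859, adjusted p = 0.655), and aged division 5 lay with the lowest young ones. Over 28 alternatives in limma, the Cdc42 difference ran from 10.2 with every region listed (unadjusted p = 0.207) to 53.4 percentage points with peak number as a covariate (unadjusted p = 0.0165). This range and those of single genes below leave out all 26 cells, where each cell was thinned to 74 peaks and the Cdc42 difference was 0.0598 percentage points (unadjusted p = 0.182). A peak was present in 6 of 9 aged and 3 of 13 young cells, never with a pileup above 2, and in all 4 young cells used outside set 3. The commonest peak was 228 bp long, had identical borders in 7 cells and was centred 20 bp past the TSS. The 250 bases before this TSS (RefSeq, GRCm38.p6, chr4:137357760-137358009, minus strand), with capitals as above, hold 2 GC boxes and TATAAA far upstream of the start.
Cdc42: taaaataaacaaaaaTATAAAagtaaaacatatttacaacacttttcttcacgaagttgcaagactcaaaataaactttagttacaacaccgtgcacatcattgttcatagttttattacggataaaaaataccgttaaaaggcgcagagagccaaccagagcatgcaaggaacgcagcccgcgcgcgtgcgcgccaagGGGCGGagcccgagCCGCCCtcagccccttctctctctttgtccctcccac

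Wnt5a, a ligand that raises Cdc42 activity in HSCs, was at 19% ± 20.1 (SD, n = 5) in aged and 7.67% ± 17.1 (SD, n = 8) in young divisions (limma, unadjusted p = 0.25). Over 27 alternatives the Wnt5a difference ran from 1.61 (unadjusted p = 0.894) to 30.6 percentage points, the latter within 5000 bp of its TSSs (unadjusted p = 0.0313), and with all 26 cells it was 0.0394 (unadjusted p = 0.258). Kat8, the acetyltransferase of lysine 16 on histone H4, was at 13.4% ± 9.08 (SD, n = 5) and 25.3% ± 22.5 (SD, n = 8), respectively (limma, unadjusted p = 0.378). The Kat8 difference was -27.2 percentage points without young divisions 1 to 4 (limma, unadjusted p = 0.0993). It was 3.29 without young divisions 5 to 8 (limma, unadjusted p = 0.761). These were the lowest and highest of 28 alternatives.

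Stem cell genes differed widely in how often they had a peak. Runx1, a master regulator of blood formation, was the most open of the HSC identity list, at 65.4% ± 9.47 (SD, n = 5) in aged and 50.4% ± 25.8 (SD, n = 8) in young divisions (limma, unadjusted p = 0.0996). The Runx1 difference of 15 percentage points fell to 7.84 without young division 5 (limma, unadjusted p = 0.33). With division number as a block it was 25.4 (limma, unadjusted p = 0.0124). The lowest of 31 alternatives was -5.32 with every region listed (limma, unadjusted p = 0.625). The highest was 27.1, for highest pileup without young divisions 5 to 8 (limma, unadjusted p = 0.0501). Gata2, needed for HSC survival, was at 23.5% ± 18.7 (SD, n = 5) and 5.46% ± 15.4 (SD, n = 8) (limma, unadjusted p = 0.0727). Over 28 alternatives the Gata2 difference ran from -30.4 percentage points with a pileup of at least 3 (limma, unadjusted p = 0.0405) to 40 for highest pileup without young divisions 1 to 4 (unadjusted p = 0.0219). Mecom had a peak in 2 young cells and Meis1 in 1 aged and 1 young cell, too few to be tested. The homeobox gene Hoxa9 and the surface receptors Kit, Slamf1 and Procr had no peak in any cell used. Of these, Kit and Slamf1 had regions with a pileup of 1 in 4 and 5 of the 22 cells. Actb, which every cell uses, had no peak either and was listed with a region in 2 cells, so a missing peak cannot be read as a silent gene. Gapdh was at 37.8% ± 24.4 (SD, n = 5) in aged and 29.4% ± 24.4 (SD, n = 8) in young divisions.

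Of the 40 genes of HSC identity 21 were tested and none had an unadjusted p under 0.05, with a median difference of -3.73 percentage points. Their mean promoter-open value was 13.7% ± 2.67 (SD, n = 5) in aged and 14% ± 2.06 (SD, n = 8) in young divisions. For all genes the means were 12.6% and 11.4%, and aged division 3 was at 10.2% for the list against 14.2% for all genes. Both were above the 1460 chemosensory receptor genes, which are silent in blood, at 1.39% ± 0.133 (SD, n = 5) and 1.51% ± 0.224 (SD, n = 8). Of 128 chemosensory receptors tested, 4 were higher (3.12%, against 6.5% of all genes) and 1 lower at an unadjusted p under 0.05. Keratins of epithelia were at 2.86% and 3.39%, respectively, with 1 of 19 higher. Of 12 HSC markers 6 had no peak, and those with one were led by Hlf at a mean of 35.7% over all divisions. Markers of red cells (4 genes) and for stroma and endothelium (4 genes) were at 0% in all divisions of set 3, though the latter stood at 4.89% in young division 1 of set 4. The wider lists were at 10.2% in aged and 11.8% in young divisions for red cells, led by Tfrc at 47.2% over all divisions, and at 4.58% and 2.4% for stroma and endothelium.

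Markers of mature lineages were not absent. The 7 myeloid markers had a mean of 7.25% ± 1.58 (SD, n = 5) in aged and 3.14% ± 3.96 (SD, n = 8) in young divisions, with 5 of 7 at 0%. In the wider myeloid list, 1 of 5 genes tested was higher at an unadjusted p under 0.05 and none passed the adjusted one, in lists too short to set against the 6.5% of all genes. It was Csf3r, the receptor for the GCSF present in the culture, at 50.8% ± 11.1 (SD, n = 5) in aged and 17.7% ± 28.2 (SD, n = 8) in young divisions. Spi1, the factor PU.1 of myeloid and B cells, was at 55.8% ± 22.1 (SD, n = 5) and 37.5% ± 22.1 (SD, n = 8), and Cebpa at 34.8% ± 19.1 (SD, n = 5) and 35.6% ± 22.2 (SD, n = 8). Among lymphoid genes Gata3 was at 48.8% ± 12.7 (SD, n = 5) in aged and 12.9% ± 21.4 (SD, n = 8) in young divisions (limma, unadjusted p = 0.0101, adjusted p = 0.492). Ebf1, a B cell factor, was at 32.3% ± 21.4 (SD, n = 5) and 10.5% ± 12.4 (SD, n = 8), while Il7r had no region in any cell used. Hbb-bs, an adult beta-globin, had a peak in 0 aged and 5 young cells, as the 1 gene of 8 erythroid genes tested at an unadjusted p under 0.05. Zfpm1 was the 1 gene of 10 megakaryocyte genes, on the aged side, in a list with a median difference of -1.96 percentage points. The 3 megakaryocyte markers went the other way, at 20.8% ± 9.82 (SD, n = 5) in aged and 13.8% ± 8.24 (SD, n = 8) in young divisions, and the 6 lymphoid markers were at 5.38% ± 3.57 (SD, n = 5) and 1.75% ± 2.06 (SD, n = 8). Nes was the 1 gene of 4 stromal and endothelial genes, also on the aged side. Their part in the other differences was not tested.

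Genes known for higher RNA in HSCs of old mice held 3 genes higher and none lower in aged divisions at an unadjusted p under 0.05 among 16 tested, or 18.8% against 6.5% of all genes, with a median difference of 4.76 percentage points. They were Aldh1a1, Neo1 and Gstm2. With only 16 genes tested, that share is too coarse to set against the one over all genes. The mean promoter-open value of the list was 8.77% to 11.7% in aged and 1.94% to 9.43% in young divisions of set 3. In division 1 of set 4 and divisions 5 and 6 of set 5, all young, it was 16.6%, 6.67% and 8.9%. The first of these lay above all aged divisions of set 3. Aldh1a1, a retinaldehyde dehydrogenase, had a peak in all 9 aged and in 6 of 13 young cells, at 68.1%, 47%, 54.8%, 40.8% and 43% in aged divisions 1 to 5 and 0% to 66.3% in young ones (limma, difference 30 ± 13.2 SE, unadjusted p = 0.0234, adjusted p = 0.569). Aldh1a1 also had a peak in all 4 young cells used outside set 3. The lowest of its 28 alternatives was 8.04 percentage points with every region listed (limma, unadjusted p = 0.232). The highest was 56.9 with peak number as a covariate (limma, unadjusted p = 0.0142). Neo1, a netrin receptor, was at 41.4% ± 25.6 (SD, n = 5) in aged and 4.24% ± 8.14 (SD, n = 8) in young divisions. Selp was at 13% ± 8.52 (SD, n = 5) and 16.2% ± 19.5 (SD, n = 8), and Vwf, Itga2b and Clu had no peak in any cell used.

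The Wnt list held 3 genes higher and 1 lower in aged divisions at an unadjusted p under 0.05 among 27 tested, with a median difference of 7.3 percentage points. The shares over all genes were 6.5% higher and 1.41% lower, against 11.1% higher in this list, 4% in TGF-beta signalling, 8% in the VEGF, EGF and IGF1 list and 4.55% in the interferon list. The higher ones were the coreceptor Lrp6, at 50.8% ± 11.1 (SD, n = 5) in aged and 14.7% ± 17.5 (SD, n = 8) in young divisions, the ligand Wnt1 and Znrf3, a ubiquitin ligase that removes Wnt receptors. Fzd8, a receptor, was lower, at 28.8% ± 20.5 (SD, n = 5) and 52.5% ± 11.4 (SD, n = 8). In TGF-beta signalling 1 of 25 genes tested was higher, Smad5, a signal carrier of bone morphogenetic proteins. In the VEGF, EGF and IGF1 list 2 of 25 were higher, Grb2 and Pik3ca. The interferon list had Irf1 higher and the kinase Jak1 lower among 22 tested.

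Among chromatin regulators 2 of 40 genes tested were higher in aged divisions at an unadjusted p under 0.05 and none was lower, or 5% higher against 6.5% of all genes tested, and the median difference was -3.31 percentage points. Dnmt3a, a DNA methyltransferase that restrains HSC self-renewal, was at 62.1% ± 26.4 (SD, n = 5) in aged and 29% ± 28.4 (SD, n = 8) in young divisions (limma, unadjusted p = 0.00464, adjusted p = 0.459). Hdac1, a histone deacetylase, was at 38.8% ± 25.5 (SD, n = 5) and 10.6% ± 20.4 (SD, n = 8). Replication-dependent histones had 0 higher and 3 lower genes among 37, against 6.5% and 1.41% of all genes, with a median difference of 0.606 percentage points. The lower genes were H2ac20 and H2bc21 with 1 set of values, 17% ± 23.9 (SD, n = 5) in aged and 44.5% ± 18.5 (SD, n = 8) in young divisions, and H2ac21. No list had a gene past the adjusted threshold.

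In the cell cycle list 2 of 38 genes tested were higher in aged divisions (5.26%, against 6.5% of all genes), Ccne1, the cyclin that starts DNA replication, and E2f3, and 1 was lower, the mitotic kinase Plk1, with a median difference of -0.737 percentage points against 2.09 over all genes. The Ccne1 difference was 37.7 ± 14 percentage points (SE, limma, unadjusted p = 0.0069, adjusted p = 0.468). In the DNA damage list Chek2, a checkpoint kinase, had a peak in 5 aged and 0 young cells, while the excision repair gene Ercc1 was lower. Ribosomal proteins had 5 higher (7.46%) and 2 lower among 67 tested, with a median difference of 0.673 percentage points, and oxidative phosphorylation had 5 (9.26%) and 1 among 54, with a median of 1.49. Glycolysis, AP-1 and housekeeping genes had none at an unadjusted p under 0.05 among 21, 18 and 22 tested. Pgk1, a glycolytic enzyme named after its values were seen, was the single gene past the threshold when pileup was compared on the log2 scale (limma, log2 difference 1.5 ± 0.26 SE, adjusted p = 0.0124), with an adjusted p of 0.996 for its promoter-open value. Jun was at 34.8% ± 18.2 (SD, n = 5) in aged and 25.5% ± 20.6 (SD, n = 8) in young divisions, and over 31 alternatives the Jun difference ran from -50.3 with q under 0.01 (limma, unadjusted p = 0.0394) to 17.5 percentage points without thinning (unadjusted p = 0.44). The value with q under 0.01 rests on only 9 cells, in 4 aged and 5 young divisions. Fos was at 13.1% ± 13.7 (SD, n = 5) and 4.23% ± 12 (SD, n = 8).

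**Figure D4:**
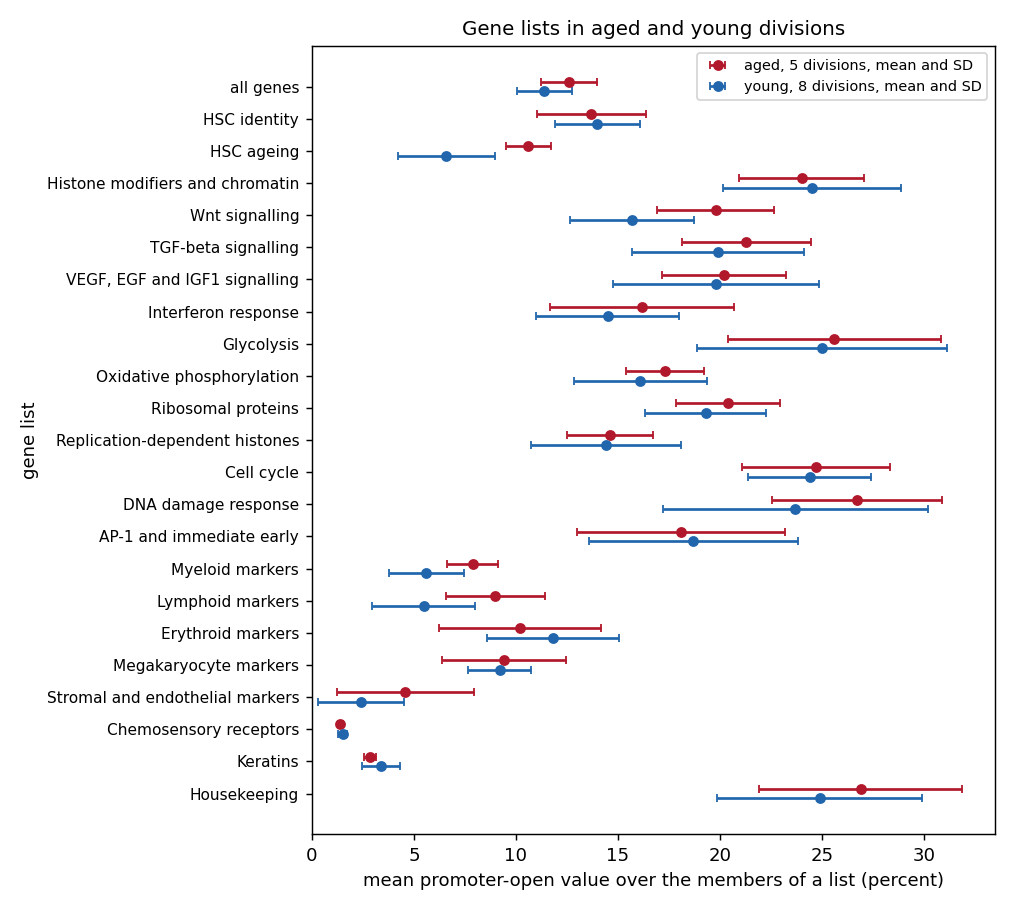
Mean promoter-open value (percent) over all members of a list, as mean and SD over 5 aged and 8 young divisions. All genes stand at 12.6% and 11.4%, chemosensory receptors at 1.39% and 1.51%, and the bars of aged and young divisions overlap for most lists.

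The genes with an unadjusted p under 0.05 were looked at in the young divisions outside set 3, which had no part in choosing them. The 777 genes on the aged side had mean promoter-open values of 47.3%, 37.8%, 47.4%, 25.6% and 27.9% in aged divisions 1 to 5 and of 6.75% to 12.3% in young divisions, as the choice requires. In the young divisions outside set 3 their means were 22.6%, 50.3% and 26.2%, where all genes tested stood at 26.3%, 33.8% and 22.1%. The 169 genes on the young side were at 32.9%, 23.1% and 23.4% in the same 3 divisions. Values of the 777 genes as low as in young divisions of set 3 were thus not seen in these young divisions. In division 1 of set 4, though, the 777 genes lay below all genes tested and the 169 above. That order was the same as in young divisions of set 3. In divisions 5 and 6 of set 5, each with a single cell used, the 777 genes lay above all genes tested. Whether library set, depth, the small number of divisions or the choice of genes for low young values in set 3 lies behind this was not tested.

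**Figure D5:**
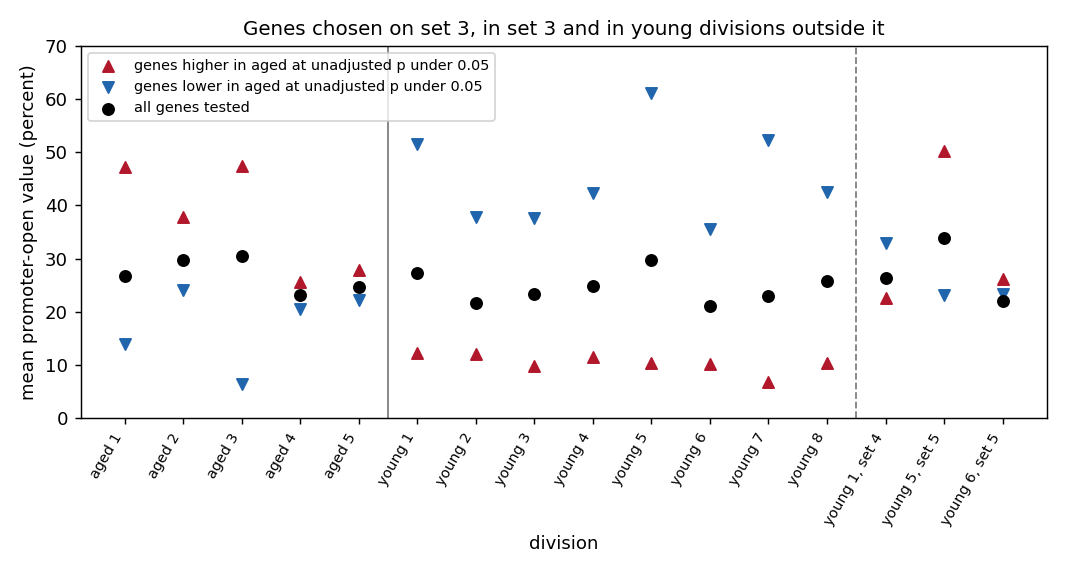
Mean promoter-open value (percent) of the 777 genes higher and the 169 genes lower in aged divisions at an unadjusted p under 0.05, and of all 11957 genes tested, per division. The solid line parts aged from young divisions of set 3, on which the genes were chosen, and to the right of the dashed line the 777 genes stand at 22.6%, 50.3% and 26.2% in young divisions of sets 4 and 5.

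Of the 777 genes, 89.4% were protein-coding and 4.12% lay on chromosome X, and of the 169 genes 88.8% and 4.14%, against 88.2% and 3.03% of all genes tested. CpG-rich promoters, the kind that most broadly used genes have, made up 74.3% and 74.2% of the protein-coding genes with a sequence, against 72.6%. Over divisions, CpG-rich promoters were 76.9% ± 0.697 (SD, n = 5) of the open promoters in aged and 76.2% ± 0.885 (SD, n = 8) in young divisions (exact permutation test, two-sided, p = 0.174, adjusted p = 0.263). Peaks overlapping a promoter were 13.7% ± 1.49 (SD, n = 5) of all peaks in aged and 12.4% ± 1.49 (SD, n = 8) in young divisions (exact permutation test, two-sided, p = 0.148, adjusted p = 0.263). Young division 5 was at 15.1%, the highest young value, and without it p was 0.0467 in the same exact test. Chromosome X held 3.95% ± 0.111 (SD, n = 5) of the peaks in aged and 4.1% ± 0.236 (SD, n = 8) in young divisions (exact permutation test, two-sided, p = 0.211, adjusted p = 0.263). Here too young division 5 stood apart, at 3.64%, and the exact p without it was 0.0316. Without young divisions 1 to 4 the X difference was 0.0091 percentage points (exact p = 0.944), and without young divisions 5 to 8 it was -0.314 (exact p = 0.0159).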

How the data were processed

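Cells were grouped by library set and age from the labels. Per the labels, the authors trimmed reads with cutadapt 1.9.1, aligned them to mm10 with Bowtie2 and called regions per cell with MACS2, with no pooling. The pileup values they deposited are a signal, whole insertions without normalization. The deposited -log10 p and -log10 q values come from the peak caller within each cell, and the deposited fold enrichment is a ratio to local background. Rows with the same borders were merged. Peaks had a -log10 q above 1.30103, and cells under 5000 peaks were left out. TSSs were those of RefSeq GRCm38.p6. Promoter-open values were compared by limma 3.58.1 (R 4.3.3) with a mean-variance trend and Benjamini-Hochberg adjustment. Division values used exact permutation tests over 1287 assignments, whose smallest p is 7.77e-04, in Python 3.11.15 with scipy 1.17.1. Named were, per direction, up to 12 protein-coding genes past adjusted p 0.05 or, with fewer than 10, the 10 of smallest p, with ties, and 26 genes whatever their values. Genes with TSSs within 2000 bp count as 1 promoter. CpG-rich promoters had observed over expected CpG of at least 0.6 and GC of at least 50% from 250 bp before to 50 bp after the TSS. They were taken over protein-coding genes, since a sequence was at hand for 81.1% to 82.6% of their open promoters and for 78.9% to 80.5% of all open promoters. Members and lists were chosen with earlier results of these data known. Alternatives changed the peak threshold, thinning, cells, window, filter, test and divisions.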

Additional observations from a re-analysis of the deposited data

Results flagged for a closer look

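In 9 of 78 groups of divisions tested, a value lay far from the others of its group by Dixon's criterion. Chance gives about 1 in 20 for values that vary continuously. In the young groups of Fos and Gata2 and both groups of Meis1, all other divisions were at 0%. The 9 groups can therefore not be set against that rate. The promoter-open value of Tfap4 was 33.8% in young division 6, that of Fos 33.8% in the same division, that of Wnt5a 48.5% in young division 7 and that of Gata2 43.7% in young division 2, each the highest of its group. Kif23 was highest in aged division 2, at 47%, and Gata1 in aged division 3, at 54.8%. Grb2 was lowest in aged division 4, at 11%. Meis1 was above 0% in a single division of each age, aged division 1 at 50% and young division 2 at 12.9%. Cells outside set 3 had no part in the comparison by age. There the open promoter share was 15.8% in young division 5 of set 5, above all 8 young divisions of set 3. Among peaks of highest pileup it was 21.1% in young division 1 of set 4 and 22% in young division 6 of set 5, again above all 8. The causes were not tested.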

How the results depend on the processing

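No gene passed an adjusted p of 0.05 in 19 of 21 alternatives (limma, and the exact permutation test in 1 of them), nor when any 1 division was left out, against 1 gene with weights per division (Chst15) and 1 by log2 pileup (Pgk1). Genes higher in aged divisions at an unadjusted p under 0.05 (777) were 1460 of 15926 tested with every region listed, 1225 by log2 pileup, 410 of 8474 with a peak in 7 divisions, 226 of 3848 at q under 0.01 and 160 of 3739 with shared regions removed. Genes lower (169) were 63 with all 26 cells, 286 with weights per division, 64 of 7044 at a pileup of at least 3, 79 of 3848 at q under 0.01, 336 of 17467 within 5000 bp and 16 of 3739 with shared regions removed. These numbers tested differ from the 11957 above, so the counts are not shares. Some settings also changed cells and thinning, here and below. With q under 0.01, 9 cells of 4 aged and 5 young divisions were thinned to 5653 peaks. With a pileup of at least 3, 16 cells of 5 aged and 7 young divisions were thinned to 5206. Every region listed used 26 cells thinned to 26304, and shared regions removed used 22 thinned to 1105. Genes lower were 579 without young divisions 1 to 4 and 451 without young divisions 5 to 8, and 530 and 450 with peaks of highest pileup. Leaving out 1 division at a time gave 583 to 1000 higher and 114 to 239 lower genes. With division number as a block, 578 were higher and 270 lower, though equal numbers in both ages correlated best in 1 of 5 cases. Other counts lay within 1.5 times.

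The difference in log10 peak number was -9.96e-04 at a pileup of at least 3 (exact p = 0.991), 0.135 at q under 0.01 (exact p = 0.175), 0.26 with all 26 cells (exact p = 0.43), and -0.0136 to 0.0415 with 1 division left out. The promoter share of peaks differed by 7.87 points at a pileup of at least 3 (exact p = 0.0379), by 3.91 at q under 0.01 (exact p = 0.294), by 0.3 with all 26 cells (exact p = 0.944), and by 0.898 to 1.75 with 1 division left out, where it passed without young division 5 (1.71, exact p = 0.0467). The open promoter share differed by 1.76 points at a pileup of at least 3 and by 3.09 for highest pileup, and by 0.819 to 1.62 with 1 division left out. The CpG-rich share differed by 0.918 points for highest pileup (exact p = 0.0272) and by -0.688 with shared regions removed (exact p = 0.192), and by 0.509 to 0.917 with 1 division left out. The X share differed by 0.0091 points without young divisions 1 to 4 (exact p = 0.944), by -0.314 without young divisions 5 to 8 (exact p = 0.0159), and by -0.217 to -0.109 with 1 division left out.

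The genes named by p were chosen for their direction, so a kept direction says little. It reversed in 9 cases, Mef2d (-2.16), Mpp7 (3.89) and Zscan18 (6.36) with every region listed, Cxcr3 with all 26 cells (0.646), Idh3g and Ssr4 at q under 0.01 (both 9.97), Kif23 (3.51) and Golga3 (1.01) at a pileup of at least 3, and Golga3 by log2 pileup (0.127). Of the 26 genes named whatever their values 14 were tested, and 24 of their 441 values moved by more than 1 SD. The causes were not tested.

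Chosen after seeing the data were the removal of shared regions with its minimum of 1000 peaks per cell, the removal of either block of young divisions, alone or with highest pileup, the limit of the CpG-rich share to protein-coding genes, the use of division 5 of set 5 with 21193 peaks, and naming all 7 tied genes. Depth limits all values, since the smallest cell used held 21279 peaks and a peak needed a pileup of only 2 in each cell used.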
